A study of Mus musculus with 33 samples.

Results

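Collagen genes were taken as every row of the deposited expression table whose symbol has the form Col, a number, the letter a and a number. The rule used names only and found 43 genes of 21671. The table covers 33 mouse livers and liver nodules (strain C57BL/6) in 2 arms, profiled by stranded sequencing of total RNA. In the first arm, mice 6 to 8 weeks old received an adeno-associated virus, AAV8-TBG-CRE, intravenously, and livers were taken at day 4. The TBG promoter restricts Cre to hepatocytes, so the alleles recombine there and stay unrecombined in other liver cells. The groups, 5 livers each, were wild-type (WT), beta-cat Ex3 (Ex3, in which Cre removes exon 3 of the beta-catenin gene and leaves a stabilised protein), R26-lslMYC (MYC, a MYC transgene that Cre switches on) and R26-lslMYC/beta-cat Ex3 (MYC+Ex3). All of these mice, WT included, received the Cre virus. The second arm held 7 WT livers taken 4 days after 4-hydroxytamoxifen (4-OHT), 3 nodules from mice carrying Albeta-CreERT2 and R26-lslMYC (MYC tumours) and 3 nodules from mice that also carried the Ex3 allele (MYC+Ex3 tumours). CreERT2 is a form of Cre that acts only once 4-OHT binds it. Age and treatment are not labelled for the nodules, and the 4-OHT livers were not matched to them in age by any label. Nothing in the labels says whether nodules of a group came from separate mice, so p-values measure the spread between these samples, which may be partly technical. Libraries are named below by group and a number in record order.

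Collagens are secreted proteins in which 3 chains wind into a triple helix. Each chain has its own gene, and some chains are made only to pair with a given partner: the common type I molecule joins pro-alpha-1 chains from Col1a1 with a chain from Col1a2, and the common type IV molecule joins chains from Col4a1 and Col4a2. Fibrillar collagens form the tensile fibres that accumulate in liver scars, where stellate cells and portal fibroblasts are the main makers. Type IV collagens form the sheet-like network of basement membranes, fibril-associated collagens bind to the surface of fibres, and types XV and XVIII carry the endostatin fragment at their end. Col18a1 is known to be made by hepatocytes.

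Promoter sequence is shown for 4 genes on which the results below turn, as context for their regulation. Of the 43 genes, 34 had an entry, 37 windows in all, in the RefSeq table of promoters (GRCm38.p6, a later build than the mm9 named in the submitters' processing notes). Each stretch is the 250 bases before the transcription start on the gene's own strand, searched on both strands for the CCAAT box, the TATAAA box and the GC box GGGCGG. Capitals mark these matches, and CCGCCC is a GC box of the other strand. Col1a2 (chr6:4505368-4505617, plus strand) and Col3a1 (chr1:45311288-45311537, plus strand) code for fibrillar chains that were higher in MYC tumours. Col5a3 (chr9:20815068-20815317, minus strand) was lower in MYC+Ex3 tumours, and Col13a1 (chr10:61979109-61979358, minus strand) was lower in short-term MYC+Ex3 livers.
Col1a2: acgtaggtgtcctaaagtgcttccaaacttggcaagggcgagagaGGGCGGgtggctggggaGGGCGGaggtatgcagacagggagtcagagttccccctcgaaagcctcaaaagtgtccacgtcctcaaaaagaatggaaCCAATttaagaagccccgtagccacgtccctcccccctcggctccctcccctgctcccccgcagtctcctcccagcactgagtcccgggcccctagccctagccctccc
Col3a1: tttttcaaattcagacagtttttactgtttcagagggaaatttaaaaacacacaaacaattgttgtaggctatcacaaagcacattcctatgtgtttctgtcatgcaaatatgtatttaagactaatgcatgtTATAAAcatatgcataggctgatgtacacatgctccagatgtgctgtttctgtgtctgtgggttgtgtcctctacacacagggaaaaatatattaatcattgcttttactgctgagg
Col5a3: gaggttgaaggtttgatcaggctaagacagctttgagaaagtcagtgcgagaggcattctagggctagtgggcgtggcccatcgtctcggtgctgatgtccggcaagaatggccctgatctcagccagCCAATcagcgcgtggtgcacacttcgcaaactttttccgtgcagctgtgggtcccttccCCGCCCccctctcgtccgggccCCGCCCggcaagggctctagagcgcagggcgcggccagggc
Col13a1: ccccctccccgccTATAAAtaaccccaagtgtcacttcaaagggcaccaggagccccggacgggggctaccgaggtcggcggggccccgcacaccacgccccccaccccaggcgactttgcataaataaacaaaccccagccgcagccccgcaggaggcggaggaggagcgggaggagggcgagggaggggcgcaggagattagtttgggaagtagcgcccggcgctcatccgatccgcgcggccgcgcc

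Among all 32851 windows of the RefSeq table, 33.8% held the CCAAT box, 12.4% the TATAAA box and 32.7% the GC box within these 250 bases. The collagen windows held them in 13, 5 and 22 of 37 cases. In the stretches above, Col1a2 had GC boxes beginning 205 and 188 bases before the start and a CCAAT box 109 bases before it, whereas Col3a1 had neither and a single TATAAA 117 bases before the start. A CCAAT box began 122 bases before the start of Col5a3, and its reversed GC boxes lay at 63 and 41 bases. The TATAAA of Col13a1 lay 237 bases upstream. Windows with TATAAA belonged to Col3a1, Col10a1, Col11a2, Col13a1 and Col17a1. The starts of Col4a1 and Col4a2 lay 21 bases apart on opposite strands of chromosome 8 (chr8:11312777-11313076 for Col4a1 and chr8:11312555-11312854 for Col4a2), so their windows shared 78 bases. A motif match is a description of the letters and not evidence of binding.

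Levels are given in RPKM, a read count scaled to gene length and to library size. The AAV libraries held 3.75 to 7.31 M reads in genes and the tumour-arm libraries 6.65 to 9.82 M. For the same share of gene reads, RPKM in the tumour arm stood at 0.222 to 0.296 of the AAV scale, so levels were compared within an arm only. Axin2, a standard target of beta-catenin, checked the Ex3 label: it read 10.6 to 24.9 in Ex3 and 7.49 to 24.3 in MYC+Ex3 livers against 2.73 to 4.3 in WT, and 7.63 to 11.3 in MYC+Ex3 tumours against 0.0946 to 0.66 in MYC tumours. The Myc row overlapped between groups (0.748 to 4.11 in WT and 3.12 to 4.81 in MYC livers), and whether it counts reads of the transgene is not given in the sources used here. All libraries expressed albumin, the hepatocyte product (176.6 RPKM or more in the AAV arm, 33.2 or more in the tumour arm).

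Some libraries stood apart. Summed Krt5, Krt14 and Krt17, keratins of squamous epithelium, exceeded 1 RPKM in 10 of 20 AAV livers (3 WT, 3 Ex3, 1 MYC and 3 MYC+Ex3), here called keratin-bearing. The library MYC 5 held Xist, the RNA of the inactive X chromosome, at 86.1 RPKM together with the Y-linked Ddx3y at 4.74, while Ddx3y was at most 0.134 in the 7 other female AAV livers. The library MYC tumour 3 read Ddx3y at 2.35, against 12.2 to 21.6 in the 8 other males of its arm, and its summed skeletal muscle markers were 13.6 RPKM against 0.0666 and 0.154 in the other MYC tumours. The control library 4-OHT 1 had more, 30.4 RPKM, where the other 4-OHT livers had at most 0.0726. Without 4-OHT 1 the Col14a1 call in MYC tumours and the Col3a1 call between the tumour groups, both described below, were lost, and the other tumour-arm calls held. By these genes the males numbered 2 in WT, 3 in Ex3, 3 in MYC and 4 in MYC+Ex3 livers, 4 among 4-OHT livers, 3 among MYC tumours and 2 among MYC+Ex3 tumours. For some collagen genes and ratios that rest on these libraries, differences are given with and without them. Counts and sums of the marker and collagen-processing lists, and shares of summed collagen RPKM, are given with all libraries only.

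Normal liver used few collagen genes strongly. In WT livers of the AAV arm Col18a1 led with 106 ± 10.7 RPKM (SD, n = 5), followed by the fibril-associated Col14a1 at 26.2 ± 3.27, Col4a1 at 23.6 ± 7.68, the fibrillar Col3a1 at 15.7 ± 3.93 and Col4a2 at 13.8 ± 4.8. The ranges of Col14a1 and Col4a1 overlapped, as did those of Col3a1 and Col4a2, while Col18a1 stood above all others in every WT liver. Col18a1 alone made up 42.1% to 54.2% of summed collagen RPKM there, and the 11 fibrillar genes together 11.9% to 20.8%. In the 4-OHT livers Col18a1 also led (22.5 to 25.3 RPKM), with 30.7% to 34.7% of the sum, followed by Col4a1 (9.16 ± 1.42, n = 7), Col14a1 (6.63 ± 0.512) and Col3a1 (6.43 ± 0.654).

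Most other members were rare. All 43 together took 0.121% to 0.285% of the reads in genes. Reads were found in all 33 libraries for 28 genes, and 7 had fewer than 100 reads in all libraries together. Col26a1 had 2 reads in the series and Col19a1 24. A filter of at least 1 RPKM in at least 3 libraries of an arm left 22 members for testing in the AAV arm and 14 in the tumour arm, where the RPKM scale makes it stricter. The 21 and 29 members left out were not shown to be unchanged, and a second fit on recovered reads, described below, took in more of them.

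**Figure D1:**
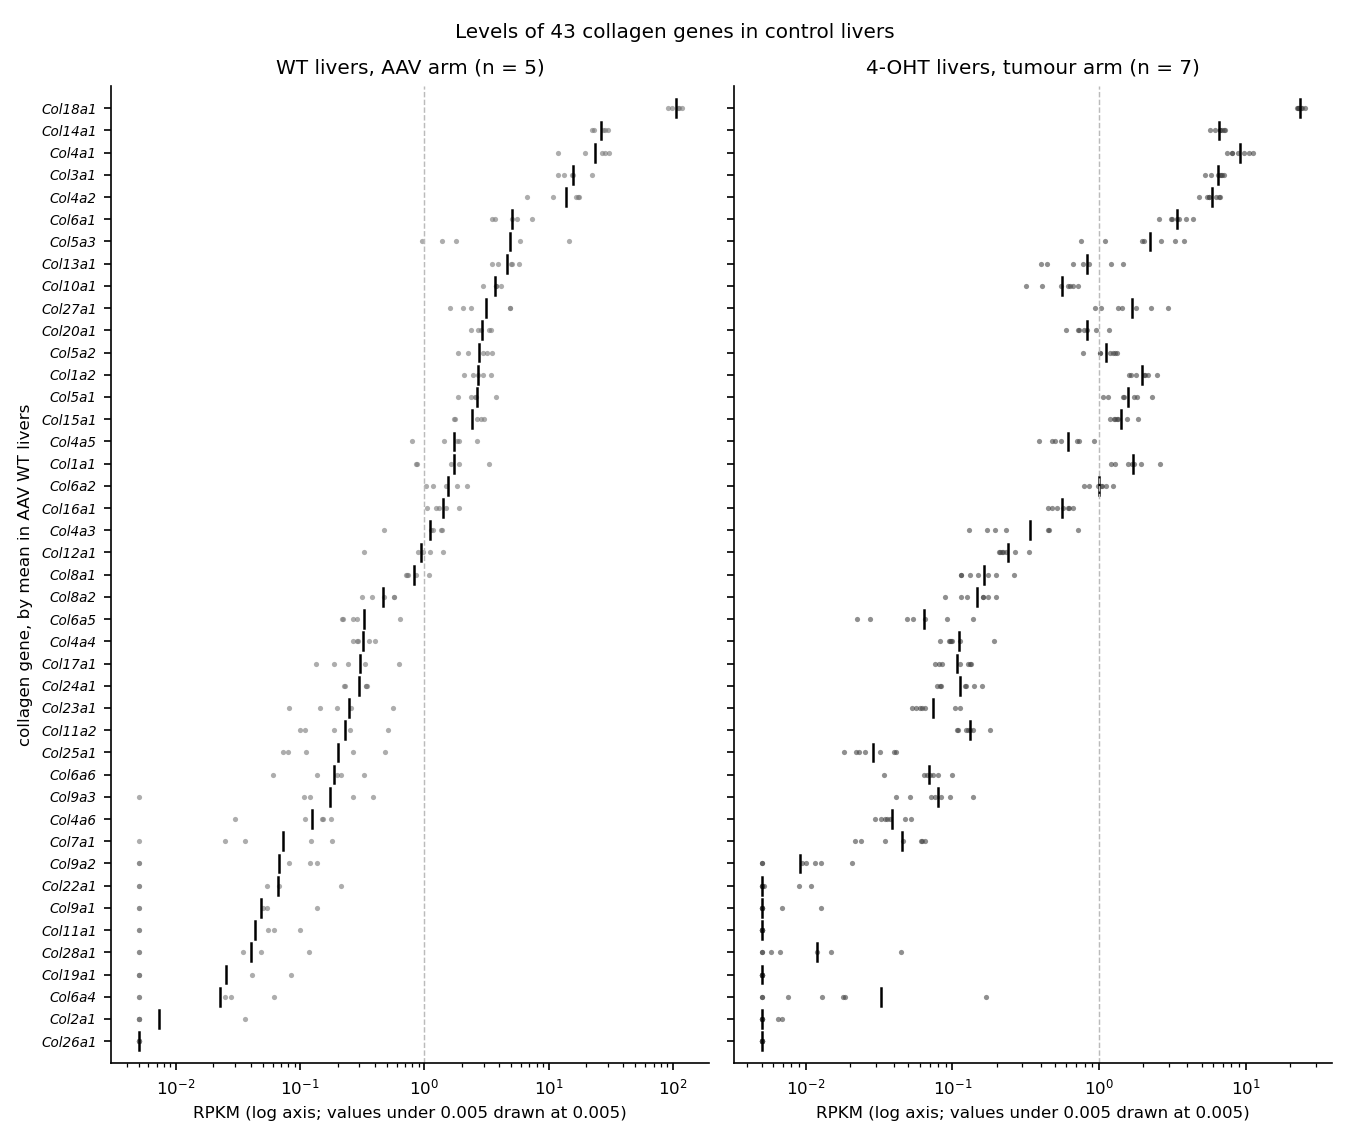
RPKM (log axis) of the 43 collagen genes in the 5 WT livers of the AAV arm and the 7 livers given 4-OHT, with 1 point per library, a bar at the mean and a dashed line at 1 RPKM; values under 0.005 are drawn at 0.005. Col18a1 stands above the rest in both arms, and many genes lie below the dashed line; the 2 axes are on different RPKM scales.

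In the short-term arm, no collagen gene passed the test with activated beta-catenin alone. Of 22 members tested in Ex3 against WT livers, 0 passed an adjusted p of 0.05 (limma on log2(RPKM + 1)), where 0.132% of all 13688 genes tested did, and 3 had an unadjusted p under 0.05. The members' median difference was 0.033 on the log2 scale, against 0.015 for all genes. Col12a1, whose product bridges fibres to their surroundings, came closest: it read 0.976, 0.323, 0.894, 1.41 and 1.1 RPKM in WT livers and 2.03, 1.93, 2.02, 2.26 and 1.8 in Ex3 livers. The groups did not overlap, and the difference was 0.66 ± 0.18 (log2, SE) with adjusted p = 0.284. The largest difference was that of Col1a1 (0.93 ± 0.36, adjusted p = 0.784), whose Ex3 range of 1.89 to 7.77 RPKM overlapped the WT range of 0.86 to 3.32. In the authors' deposited table, Col12a1 was the single collagen gene called in this comparison, with a log2 fold change of 0.68 and adjusted p = 0.0122; 0.656% of all genes with an adjusted p there were higher.

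MYC alone raised 1 collagen gene past the threshold. Col1a1, the major chain of type I collagen, read 3.32, 0.86, 1.65, 1.88 and 0.875 RPKM in WT livers and 3.48, 3.54, 4.56, 5.44 and 8.87 in MYC livers. Every MYC liver was above every WT liver, though WT 1 at 3.32 lay close to the lowest MYC liver at 3.48. The difference was 1.19 ± 0.36 (adjusted p = 0.0233). Of the 22 members, 1 was higher and 0 lower, against 16.9% higher and 5.36% lower of all genes tested, and the members' median difference was 0.134 against 0.069. The call was lost in keratin-free livers alone (0.77, adjusted p = 0.333) and without MYC 5 (1.01, adjusted p = 0.0559), MYC 4, WT 2 or WT 5 in turn. Without MYC 5, 3 other members were called, all lower: Col13a1, Col14a1 and Col20a1. These are whole livers, in which more cells of a type and more RNA per cell cannot be told apart.

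Other fibrillar and basement membrane chains in MYC livers did not pass the limma test on the deposited scale. Col5a2, a chain of type V collagen that starts fibres, had the next largest difference (0.70, adjusted p = 0.118): it read 1.85 to 3.53 RPKM in WT and 3.22 to 8.55 in MYC livers. Col4a1 read 27.1, 12, 28.2, 30.9 and 19.8 in WT and 40.1, 29.5, 29.8, 39.4 and 30.4 in MYC livers, and WT 4 exceeded the lowest 3 MYC livers, with a difference of 0.56 and adjusted p = 0.060. Col4a3, a chain of the type IV network best known from kidney, was at 1.1 ± 0.367 in WT and 0.453 ± 0.231 in MYC livers (difference -0.53, adjusted p = 0.054). With each library rescaled by its median ratio to the geometric mean, 5 members were called (13.7% of all genes higher and 9.51% lower), namely Col1a1 (1.12) higher and Col4a3 (-0.57), Col14a1 (-0.58), Col20a1 (-0.54) and Col18a1 (-0.46) lower. That rescaling moved the median of all genes from 0.069 to -0.016 and the share of higher genes among all called from 75.9% to 59.1%. In the authors' deposited table, 3 members were called higher and 3 lower, of 28 with an adjusted p (12.5% and 8.02% of all genes). The higher were Col1a1, Col5a2 (log2 fold change 0.77, adjusted p = 0.018) and Col3a1 (0.45, adjusted p = 0.0272). The lower were Col4a3 (-1.16, adjusted p = 0.00384), Col14a1 and Col20a1.

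With MYC and activated beta-catenin together, 5 collagen genes differed from WT, 2 higher and 3 lower, of 22 tested. Among all genes 17.9% were higher and 6.18% lower, and the members' median difference was -0.018 against 0.049. By structural class, 1 of 7 fibrillar genes tested was higher (Col1a1), and 0 of the 4 basement membrane genes tested passed. Of 4 fibril-associated genes tested, 1 was higher (Col12a1) and 1 lower (Col14a1). The lower Col10a1 was 1 of 2 short-chain genes tested, and the lower Col13a1 the only transmembrane gene tested. With so few genes tested, those 2 classes cannot show whether a class moved as a whole.

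Col13a1, a collagen anchored in the cell membrane, had the smallest adjusted p. It read 4.99, 3.94, 5.75, 3.51 and 5.1 RPKM in WT and 1.95, 2.44, 2.61, 2.22 and 2.71 in MYC+Ex3 livers, and no value of one group reached the other. It fell by 0.73 (SE 0.19, adjusted p = 0.0066). Ex3 livers (3 to 4.44) overlapped WT and stood above MYC+Ex3 livers, and MYC livers (2.05 to 5.7) overlapped both. Col1a1 read 1.94, 7.1, 4.6, 14.4 and 4.51 in MYC+Ex3 livers. The lowest of these lay inside the WT range, and the difference was 1.32 (adjusted p = 0.0116). It was 1.01 without MYC+Ex3 4 (adjusted p = 0.0367), and 0.53 with adjusted p = 0.498 in keratin-free livers alone. Col12a1 read 1.93, 2.5, 2.62, 1.46 and 1.46 in these livers, all above the highest WT liver at 1.41. It rose by 0.63 (adjusted p = 0.0123), a difference close in size to the 0.66 in Ex3 livers, and both comparisons share the WT livers.

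Col10a1, a short-chain network collagen best known from growing cartilage, read 3.8, 4.16, 3.74, 2.96 and 3.79 RPKM in WT and 2.43, 1.79, 2.47, 2.44 and 2.19 in MYC+Ex3 livers. The groups did not overlap, and it fell by 0.52 (SE 0.16, adjusted p = 0.0190). Col14a1, whose product coats fibres and which was among the most abundant collagen genes of normal liver, read 23, 27.5, 29.8, 22.5 and 28.2 in WT and 11.4, 12.8, 12.3, 24.8 and 23.6 in MYC+Ex3 livers. MYC+Ex3 1, 2 and 3 lay far below WT and MYC+Ex3 4 and 5 inside its range, with a difference of -0.67 ± 0.21 (adjusted p = 0.0283). Col14a1 was called in 14 of 20 fits that each left out 1 library, and not with a term for sex (-0.51, adjusted p = 0.0671). The call was lost without WT 2, 3 or 5 and without MYC+Ex3 1, 2 or 3 in turn. Fits that left out an Ex3 or MYC liver kept every liver of both groups compared. The gene with the largest difference among those not called was Col27a1, a fibrillar chain of cartilage (-0.83, adjusted p = 0.0893), at 4.9, 4.89, 2.03, 2.37 and 1.6 in WT and 1.48, 1.57, 1.13, 1.16 and 0.754 in MYC+Ex3 livers, with no overlap. The authors' deposited table did call Col27a1 lower in this comparison (log2 fold change -1.3, adjusted p = 0.000121).

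**Figure D2:**
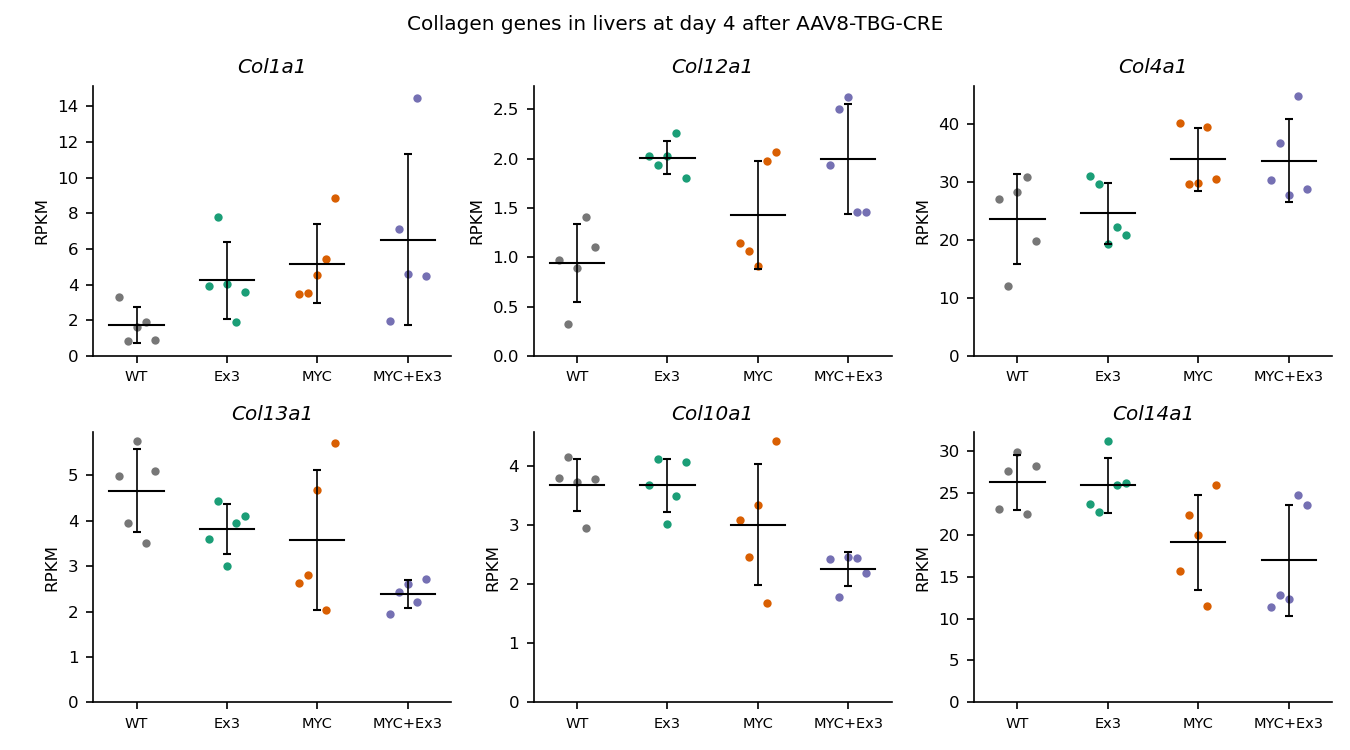
RPKM of 6 collagen genes in livers at day 4 after AAV8-TBG-CRE, with 1 point per liver (n = 5 per group), bars at the mean and whiskers of 1 SD. Col12a1 separates Ex3 and MYC+Ex3 livers from WT, Col13a1 and Col10a1 have their lowest means in MYC+Ex3 livers, and the Col1a1 mean of MYC+Ex3 livers is carried up by a liver at 14.4.

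The effect of adding MYC to activated beta-catenin was seen in MYC+Ex3 against Ex3 livers, where 0 members were higher and 2 lower, against 16.4% higher and 4.7% lower of all genes. These were Col10a1 (-0.52, adjusted p = 0.0216) and Col14a1 (-0.65, adjusted p = 0.0356), at 3.02 to 4.12 and 22.7 to 31.1 RPKM in Ex3 livers. The members' median difference was -0.237 against 0.028 for all genes. Col27a1 had the largest difference (-0.66, adjusted p = 0.195). Adding activated beta-catenin to MYC called 0 of 22 members (0.19% of all genes called, 1 member at an unadjusted p under 0.05). Its largest differences were those of Col5a2 (-0.56) and Col4a5 (-0.53), each with adjusted p = 0.9999. The interaction of both alleles called 0 of 22 members and 0% of all genes, with 0 members at an unadjusted p under 0.05, so no member was shown to respond to the pair in other than an additive way. The largest interaction estimates were -0.81 for Col3a1 and -0.80 for Col1a1, both with adjusted p = 0.9999.

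Rescaling raised the number of members called in MYC+Ex3 against WT to 6, adding Col18a1 (-0.45), where 15% of all genes were higher and 9.51% lower. Against Ex3 it called 3, adding Col13a1, where 14.2% were higher and 6.95% lower. The share of higher genes among all called then went from 74.4% to 61.2% and from 77.7% to 67.1%. The authors' deposited table called 2 members higher and 7 lower in MYC+Ex3 against WT, of 30 with an adjusted p (16.3% and 11.5% of all genes), and 0 of 26 in MYC+Ex3 against MYC (0.276% of all genes).

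Markers of other liver cells were examined beside these results. Of 16 stellate cell and fibroblast markers tested, 2 were higher and 2 lower in MYC against WT livers, where 16.9% of all genes were higher and 5.36% lower: Tagln (1.46) and Acta2 (1.59), contractile proteins of activated stellate cells, were higher, and Rgs5 and Reln, markers of resting pericytes and stellate cells, were lower. The summed level of the 16 was 341 to 408 RPKM in WT, 333 to 388 in Ex3, 233 to 349 in MYC and 198 to 344 in MYC+Ex3 livers, and none of the 16 was at 0 throughout a group. In MYC+Ex3 against WT livers 1 was higher (Tagln, 0.90) and 4 lower, where 17.9% of all genes were higher and 6.18% lower. Portal fibroblast markers (7 genes, 6 tested) gave 0 calls in either comparison. Endothelial markers were lower for 3 of 10 tested in MYC livers (median difference -0.52) and for 1 in MYC+Ex3 livers (Tek), and for 6 of 10 in each after rescaling. Their summed level was 212 to 354 RPKM in WT, 213 to 285 in Ex3, 135 to 279 in MYC and 139 to 269 in MYC+Ex3 livers. Of 7 macrophage markers, 1 was higher in MYC livers (Cd68) and 0 were called in MYC+Ex3 livers. After rescaling the stellate list gave 2 higher and 4 lower in MYC livers, and 0 higher and 5 lower in MYC+Ex3 livers. The rescaled stellate and endothelial counts stand beside 13.7% of all genes higher and 9.51% lower in MYC livers. In MYC+Ex3 livers these shares were 15% and 9.51%. The part of these markers in the collagen differences was not tested.

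In MYC tumours, some fibrillar chains and both common type IV chains were higher than in 4-OHT livers, at a rate near that of all genes. Of 14 members tested, 6 were higher (Col1a1, Col5a2, Col3a1, Col4a1, Col1a2 and Col4a2) and 1 lower (Col14a1). Among all 11854 genes 36.2% were higher and 13.7% lower, and the members' median difference was 0.116 against 0.188 for all genes, and the 6 of 14 members higher lay near that background. By class, 4 of the 7 fibrillar genes tested were higher and 3 did not pass (Col5a1, Col5a3 and Col27a1). Both type IV genes tested were higher on the deposited scale with all libraries, and 0 of the 2 beaded filament genes passed.

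Col1a1 read 1.2 to 2.6 RPKM in the 7 4-OHT livers (median 1.68) and 4.21, 5.58 and 14.7 in the MYC tumours. All tumours lay above all livers, and MYC tumour 3 stood far above the other two. The difference was 1.60 ± 0.29 (adjusted p = 0.0006), and 1.12 without MYC tumour 3 (adjusted p = 0.00292). Col1a2, the partner chain, read 1.59 to 2.49 in livers and 2.32, 3.33 and 7.1 in tumours (0.73, adjusted p = 0.0129). Its lowest tumour overlapped the livers, and without MYC tumour 3 the difference was 0.36 (adjusted p = 0.105).

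Col5a2 read 0.776 to 1.33 RPKM in livers and 1.68, 2.79 and 4.45 in tumours, with no overlap (0.85 ± 0.18, adjusted p = 0.0017; 0.59 without MYC tumour 3, adjusted p = 0.0131). Its partner chains in type V collagen did not pass the test: Col5a1 gave -0.08 (adjusted p = 0.752) and Col5a3 -0.19 (adjusted p = 0.580). Whether the chains differed from each other was not tested. Col3a1, which forms fibres with type I collagen, read 5.27 to 7.14 in livers and 7.71, 9.8 and 11.9 in tumours, again with no overlap (0.53 ± 0.13, adjusted p = 0.0054; 0.39 without MYC tumour 3, adjusted p = 0.0461).

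The common basement membrane chains were higher by smaller amounts. Col4a1 read 7.42 to 11.2 RPKM in livers and 13.2, 11.5 and 16.2 in MYC tumours (0.53 ± 0.15, adjusted p = 0.0090). Col4a2 read 4.8 to 6.72 in livers and 7.94, 6.86 and 11.3 in tumours (0.48 ± 0.15, adjusted p = 0.0156). Neither overlapped, but the gap between the highest liver and the lowest tumour was small for both. Both calls were lost without MYC tumour 3 (0.41 with adjusted p = 0.0665 and 0.30 with adjusted p = 0.129) and after rescaling (0.32 with adjusted p = 0.059 and 0.28 with adjusted p = 0.108). Col14a1 fell by 0.43 (SE 0.16, adjusted p = 0.0351) from 5.75 to 7.2 in livers to 3.47, 6.86 and 4.15 in tumours. MYC tumour 2 lay inside the liver range, and the call held in 6 of 13 fits that left out 1 library. It was lost without 4-OHT 1, 2, 3, 5 or 6 and without MYC tumour 1 or 3 in turn. Fits that left out a MYC+Ex3 tumour kept every library of both groups compared.

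Rescaling changed the balance of calls in the tumour arm. It moved the median of all genes from 0.188 to 0.013 in MYC tumours, and the share of higher genes among all called from 72.6% to 53.7%. On that scale 4 members were higher, Col1a1 (1.42), Col5a2 (0.71), Col1a2 (0.56) and Col3a1 (0.33), and 2 lower, Col14a1 (-0.61) and Col18a1 (-0.31), where 27.1% of all genes were higher and 23.3% lower. Col1a1, Col5a2 and Col3a1 were called on both scales and without MYC tumour 3 on the deposited scale. The Col3a1 call was lost without MYC tumour 3 in the voom fit described below (0.33, adjusted p = 0.158).

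In MYC+Ex3 tumours 1 member was higher than in 4-OHT livers and 3 were lower, of the 14 tested. Among all genes 42.3% were higher and 18.4% lower, and the members' median difference was -0.097 against 0.232. Both tumour groups were set against the same 4-OHT livers. Col14a1 read 4.04, 2.75 and 2.53 RPKM, all below the lowest liver at 5.75, and fell by 0.91 (SE 0.16, adjusted p = 0.0002). Col5a3, another chain of type V collagen, read 0.26, 0.371 and 0.344 against 0.749 to 3.83 in livers, and fell by 1.21 (SE 0.27, adjusted p = 0.0015). Col15a1, an endostatin-bearing collagen of vessel walls, read 0.491, 0.195 and 0.347 against 1.19 to 1.85, and fell by 0.84 (SE 0.25, adjusted p = 0.0088).

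The MYC+Ex3 tumours sat together below the livers for all 3 of these genes. The calls of Col14a1 and Col5a3 held in all 13 fits that left out 1 library and after rescaling (-1.09 and -1.29). Col1a1 read 4.66, 2.24 and 6.08, and rose by 0.92 (SE 0.29, adjusted p = 0.0147), with MYC+Ex3 tumour 2 inside the liver range. That call was lost without MYC+Ex3 tumour 1 or 3, and against either set of 4-OHT livers alone. Col4a1 (9.23 to 13.4 RPKM; 0.30, adjusted p = 0.0957) and Col3a1 (4.94 to 7.18; -0.09, adjusted p = 0.594) overlapped the livers. Rescaling moved the median of all genes from 0.232 to 0.049 and the share of higher genes among all called from 69.7% to 55.6%. It added Col18a1 (-0.30) to the members called (33.9% of all genes higher and 27.1% lower), and the uncalled Col1a2 and Col4a2 went from 0.15 and 0.12 to -0.01 and -0.08.

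**Figure D3:**
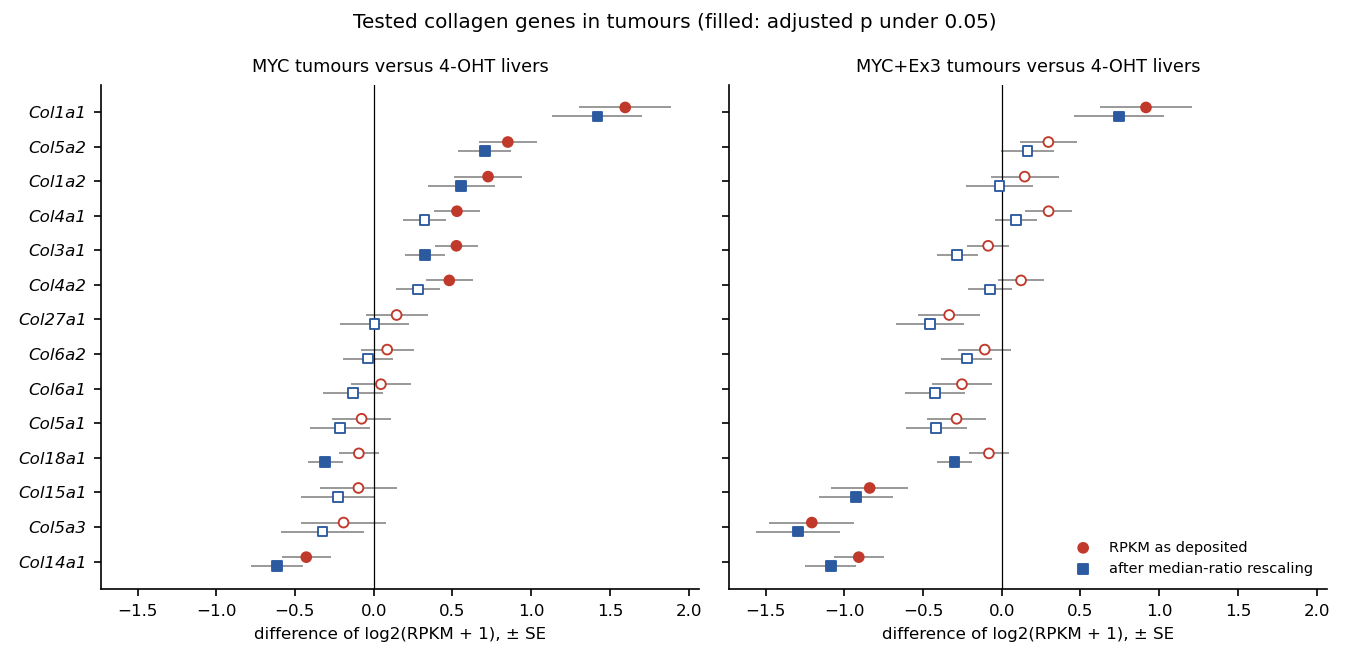
Difference of log2(RPKM + 1) with its standard error for the 14 collagen genes tested in each tumour group against the 4-OHT livers, on the deposited scale (circles) and after median-ratio rescaling (squares); filled symbols have an adjusted p under 0.05. Col1a1 is right of 0 and Col14a1 left of 0 in both panels and on both scales, while the filled circles of Col4a1 and Col4a2 in MYC tumours have open squares.

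The tumour groups were also compared directly. Of 14 members, 0 were higher and 1 lower in MYC+Ex3 against MYC tumours, where 2.02% of all genes were higher and 2.1% lower, and the members' median difference was -0.480 against 0.035. Col3a1 read 7.18, 4.94 and 5.98 RPKM against 7.71, 9.8 and 11.9, with no overlap, and fell by 0.61 (SE 0.16, adjusted p = 0.0470). This call stood at the threshold: it was -0.62 with adjusted p = 0.0703 with a term for sex, and it held in 3 of 13 fits that left out 1 library. When a tumour was left out, it held only without MYC tumour 1 or MYC+Ex3 tumour 1. Fits that left out a 4-OHT liver kept every tumour of both groups compared. The larger differences of Col5a3 (-1.01 ± 0.32, adjusted p = 0.0989) and Col15a1 (-0.74 ± 0.29, adjusted p = 0.192) did not pass, although the groups did not overlap for either. Without MYC tumour 3, in which Col15a1 read 3.42 against 0.598 and 0.591 in the other two, the Col15a1 difference was -0.25 (adjusted p = 0.331). In the authors' deposited table, Col5a3 was the single member called here, with a log2 fold change of -2.03, where 2.92% of all genes were lower.

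Members below the RPKM filter were reached through reads recovered from the table, tested with voom for genes with at least 10 reads in at least 3 libraries of an arm. This fit was chosen after the values were seen. It took in 33 members in the tumour arm and called 17 in MYC tumours, 7 higher and 10 lower, where of 14861 genes 28.1% were called higher and 19% lower. In MYC+Ex3 tumours it called 3 higher and 13 lower, where 32.2% were higher and 25.7% lower. The members' medians were -0.345 and -0.635, against 0.068 and 0.044 for all genes.

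Col12a1 and Col8a1, both low in normal liver, were higher in tumours. Col12a1 read 0.207 to 0.331 RPKM in the 4-OHT livers (73 to 117 reads) and 0.986, 0.458 and 1.84 in MYC tumours (278, 210 and 803 reads). MYC+Ex3 tumours read 0.83, 0.335 and 1.2. No tumour reached down into the livers, and the voom differences were 1.85 (adjusted p = 0.0035) and 1.41 (adjusted p = 0.0176). Col8a1, a short-chain collagen of vessel walls and injured tissue, read 0.114 to 0.262 in livers, 0.663, 0.388 and 1.69 in MYC tumours and 0.835, 0.218 and 0.582 in MYC+Ex3 tumours (2.15 with adjusted p = 0.0028 and 1.44 with adjusted p = 0.0327). MYC tumour 3 was the highest library for both genes. Without it the fit called 10 members in MYC tumours, with Col12a1, Col8a1, Col1a1 and Col5a2 still among the 4 higher.

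The lower members included chains that were scarce from the start. Col4a5, a type IV chain of specialised basement membranes, read 0.39 to 0.925 RPKM in livers (88 to 219 reads), 0.11, 0.278 and 0.0961 in MYC tumours and 0.0594, 0.0723 and 0.0899 in MYC+Ex3 tumours. Its voom differences were -2.12 (adjusted p = 0.0011) and -3.15 (adjusted p = 0.0001), with no overlap. Col13a1 read 0.399 to 1.45 in livers and 0.0631, 0.252 and 0.0408 in MYC tumours (-3.14, adjusted p = 0.0021), and 0.0622, 0.286 and 0.179 in MYC+Ex3 tumours (-2.51, adjusted p = 0.0028). Col13a1 was thus lower in these nodules as well as in short-term MYC+Ex3 livers, which have their own controls. Col24a1, a fibrillar chain, fell by 3.15 and 2.40, and Col6a6, a beaded filament chain, fell by 2.74 and 3.54, from 17 to 36 and 9 to 27 reads per liver. Col6a6 had 0, 22 and 1 reads in the MYC tumours, so MYC tumour 2 lay inside the liver range. The MYC+Ex3 tumours had 3, 2 and 0 reads of it. Without MYC tumour 3, Col4a5, Col13a1, Col24a1, Col20a1, Col8a2 and Col15a1 were the members called lower in MYC tumours, and Col6a6 was not among them.

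By class, the voom fit in MYC tumours called 4 of 9 fibrillar genes higher and 1 lower, 1 of 6 type IV genes higher and 3 lower, and 1 of 5 fibril-associated genes higher and 2 lower. In MYC+Ex3 tumours it called 1 of 9 fibrillar genes higher and 2 lower, 0 of 6 type IV genes higher and 3 lower (Col4a3, Col4a5 and Col4a6), and 1 of 5 fibril-associated genes higher and 3 lower (Col14a1, Col16a1 and Col20a1). The authors' deposited table called 7 members higher and 11 lower in MYC tumours, of 35 with an adjusted p, where 24.4% and 20.2% of all genes were called. In MYC+Ex3 tumours it called 3 higher and 18 lower, of 39, where 30.7% and 29.9% were called.

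**Figure D4:**
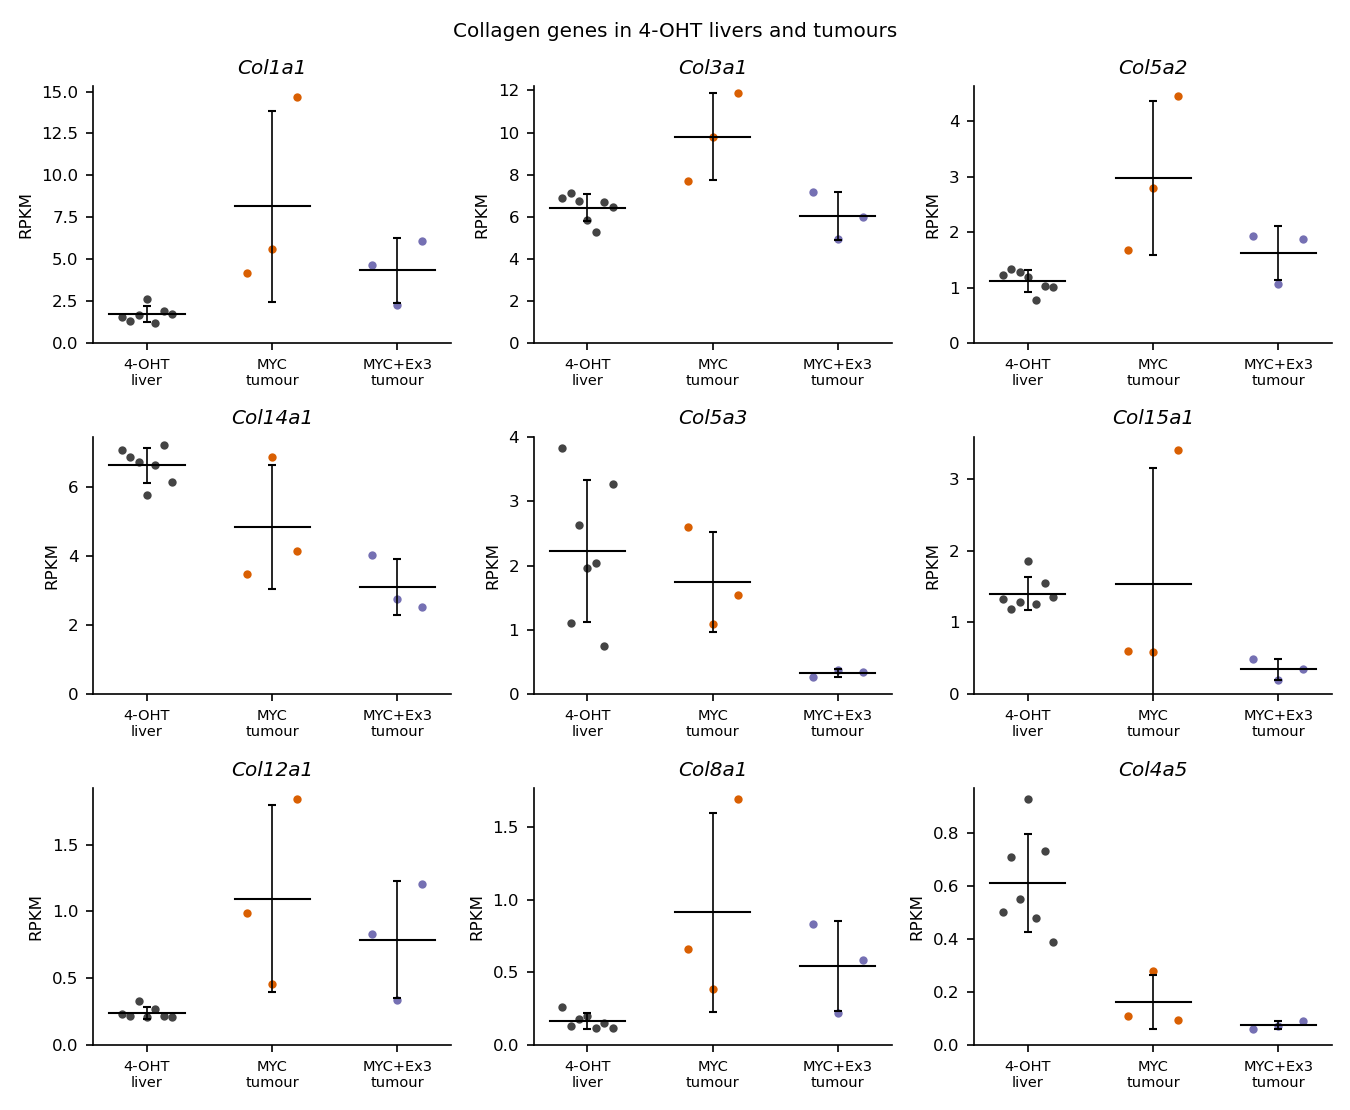
RPKM of 9 collagen genes in 7 4-OHT livers, 3 MYC tumours and 3 MYC+Ex3 tumours, with 1 point per library, bars at the mean and whiskers of 1 SD (the lower whisker of Col15a1 in MYC tumours is cut at 0). Col1a1, Col3a1 and Col5a2 lie higher in every MYC tumour than in any liver, and Col5a3 and Col15a1 lie lowest in MYC+Ex3 tumours. MYC tumour 3 is the highest library for Col1a1, Col3a1, Col5a2, Col15a1, Col12a1 and Col8a1.

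Partner chains were compared within each library, which removes the RPKM scale. This comparison was chosen after the values were seen, and p-values are from exact two-sided permutation tests adjusted over 16 tests. The ratio of Col1a1 to Col1a2 was 0.599 ± 0.246 in WT, 0.919 ± 0.144 in Ex3, 1.15 ± 0.124 in MYC and 1.31 ± 0.316 in MYC+Ex3 livers (n = 5 each). It was 0.877 ± 0.209 in the 4-OHT livers (n = 7), 1.85 ± 0.198 in MYC tumours and 1.81 ± 0.353 in MYC+Ex3 tumours (n = 3 each). In both tumour groups every ratio (1.49 to 2.19) was above every 4-OHT liver (0.628 to 1.28). The log2 differences were 1.11 and 1.06, each with exact p = 0.00833, the smallest this design allows, and adjusted p = 0.0444. Without MYC tumour 3 the MYC tumour difference was 1.02 (exact p = 0.0278, not adjusted). In MYC against WT livers the difference was 1.02 (exact p = 0.00794, again the smallest possible, adjusted p = 0.0444). It was 1.05 without MYC 5 (exact p = 0.0159, not adjusted). In keratin-free livers alone it was 0.57 (4 MYC and 2 WT livers, exact p = 0.0667, the smallest these numbers allow, so that the test could not pass). The WT ratios rest on few reads, with 18 Col1a1 reads in WT 2 and 18 in WT 5. MYC+Ex3 against WT (1.19, exact p = 0.0159, adjusted p = 0.0635) and Ex3 against WT (0.70, exact p = 0.0476, adjusted p = 0.0952) did not pass the adjustment. The tumour groups gave -0.05 (exact p = 0.9, where 0.1 is the smallest possible).

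The ratio of Col4a1 to Col4a2 was 1.73 ± 0.0919 in WT, 1.58 ± 0.0832 in Ex3, 1.98 ± 0.387 in MYC and 1.79 ± 0.207 in MYC+Ex3 livers, 1.56 ± 0.105 in 4-OHT livers, 1.59 ± 0.136 in MYC tumours and 1.77 ± 0.0801 in MYC+Ex3 tumours. No difference passed the adjustment (lowest adjusted p = 0.0952 in exact permutation tests). In MYC against WT livers the log2 difference was 0.17 (exact p = 0.222), and 0.27 without MYC 5 (exact p = 0.0397, not adjusted). A ratio shows unequal change of the chains and not which chain changed.

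**Figure D5:**
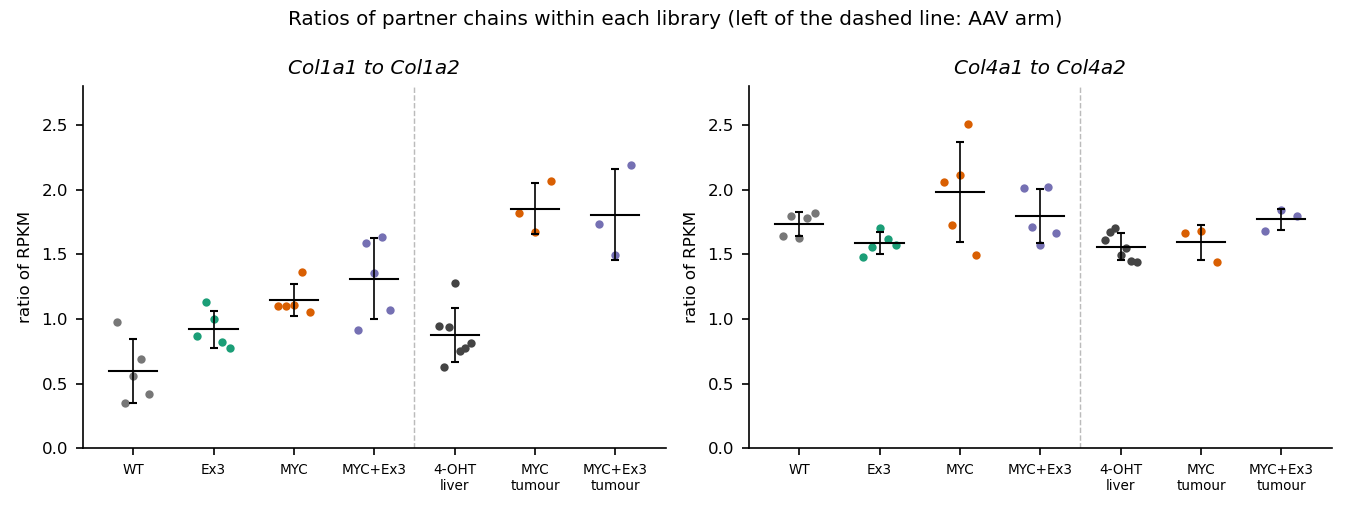
Ratio of Col1a1 to Col1a2 RPKM and of Col4a1 to Col4a2 RPKM within each library, with 1 point per library, bars at the mean and whiskers of 1 SD; groups left of the dashed line belong to the AAV arm. All 6 tumours have a Col1a1 to Col1a2 ratio of 1.49 or more, above the 7 4-OHT livers, while the Col4a1 to Col4a2 ratios of the same groups lie close together.

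Group levels of the other fibrillar chains follow as means and SD in RPKM, in the order WT, Ex3, MYC and MYC+Ex3 livers (n = 5 each). Col1a2 averaged 2.72 ± 0.509, 4.47 ± 1.64, 4.58 ± 2.18 and 4.61 ± 2.55, its highest livers being MYC 5 at 8.4 and MYC+Ex3 4 at 8.86. Col3a1 averaged 15.7 ± 3.93, 19.6 ± 4.85, 23.1 ± 2.8 and 19 ± 14.4, with MYC+Ex3 4 at 43.6 far above the rest of its group. Col5a2 averaged 2.76 ± 0.697, 2.88 ± 0.803, 5.31 ± 2.19 and 3.79 ± 3.33, with MYC+Ex3 4 again the highest liver at 9.56. MYC+Ex3 4 was thus the highest of the 20 livers for all 3 genes. Col5a3 was the most variable of the type V chains: it averaged 4.89 ± 5.69, 4.43 ± 4.29, 3.38 ± 1.68 and 2.59 ± 0.437, with WT 1 at 14.4 and WT 2 at 0.96. Col27a1 averaged 3.16 ± 1.61, 2.89 ± 2.27, 2.34 ± 2.01 and 1.22 ± 0.325, and 1.67 ± 0.715, 1.89 ± 0.402 and 1.07 ± 0.289 in 4-OHT livers, MYC tumours and MYC+Ex3 tumours, where it gave no call in limma on the deposited scale. The authors' deposited table called it lower in MYC+Ex3 tumours against 4-OHT livers (log2 fold change -0.83, adjusted p = 0.0238). Col2a1 and Col11a1, outside MYC 5, reached at most 0.0724 and 0.1 RPKM in the AAV arm.

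In the same order, the type IV and endostatin-bearing chains were at these levels. Col4a1 averaged 23.6 ± 7.68, 24.5 ± 5.3, 33.8 ± 5.41 and 33.6 ± 7.14, so that both groups with MYC lay higher on average without passing the test. Its partner Col4a2 averaged 13.8 ± 4.8, 15.6 ± 4.09, 17.3 ± 2.58 and 18.7 ± 2.99. Col4a3 averaged 1.1 ± 0.367, 1.16 ± 0.62, 0.453 ± 0.231 and 0.599 ± 0.263 in the AAV arm, and 0.336 ± 0.214, 0.0844 ± 0.0261 and 0.0468 ± 0.0106 in 4-OHT livers, MYC tumours and MYC+Ex3 tumours. Both arms had their lowest Col4a3 means in groups carrying MYC. All nodules carried MYC, so MYC and the tumour state cannot be told apart in the tumour arm. Col4a5 averaged 1.72 ± 0.674, 1.83 ± 0.41, 2.55 ± 1.83 and 1.28 ± 0.389, the MYC mean being raised by MYC 5 at 5.64. Col15a1 averaged 2.41 ± 0.617, 1.66 ± 0.851, 3.29 ± 1.35 and 2.3 ± 0.876, and its ranges overlapped in all 4 groups.

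Of the fibril-associated and short-chain genes, Col12a1 averaged 0.941 ± 0.398, 2.01 ± 0.167, 1.43 ± 0.546 and 2 ± 0.552 in that order, the MYC mean lying between WT and the groups with the Ex3 allele. Col14a1 averaged 26.2 ± 3.27, 25.9 ± 3.28, 19.1 ± 5.67 and 17 ± 6.61, and MYC livers (11.5 to 26) overlapped WT. Col20a1 averaged 2.93 ± 0.449, 2.92 ± 0.95, 1.91 ± 0.779 and 1.95 ± 0.504 in the AAV arm. In 4-OHT livers, MYC tumours and MYC+Ex3 tumours Col20a1 averaged 0.825 ± 0.186, 0.437 ± 0.0611 and 0.378 ± 0.04, and its voom differences were -1.02 (adjusted p = 0.0057) and -1.29 (adjusted p = 0.0011). Col10a1 averaged 3.69 ± 0.442, 3.68 ± 0.453, 3.01 ± 1.02 and 2.26 ± 0.288 in the AAV arm and 0.558 ± 0.143, 0.429 ± 0.0857 and 0.394 ± 0.151 in the tumour arm, where it did not pass the filter. Col8a1 averaged 0.821 ± 0.163, 0.839 ± 0.35, 1.05 ± 0.16 and 0.747 ± 0.281 and Col8a2 0.462 ± 0.114, 0.494 ± 0.224, 0.33 ± 0.12 and 0.268 ± 0.0457 in the AAV arm. Col8a1 was tested there without a call, and Col8a2 did not pass the filter.

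Col18a1 averaged 106 ± 10.7 in WT, 104 ± 18.5 in Ex3, 84.5 ± 21 in MYC and 82.1 ± 12.6 in MYC+Ex3 livers, and 23.5 ± 1.02, 22.2 ± 4.39 and 22.3 ± 4.1 RPKM in 4-OHT livers, MYC tumours and MYC+Ex3 tumours. Its share of summed collagen RPKM went from 42.1% to 54.2% in WT to 28.1% to 43.1% in MYC livers, and from 30.7% to 34.7% in 4-OHT livers to 17.2% to 34.1% in MYC tumours. The fibrillar share was 20.8% to 26.3% in 4-OHT livers, 26.4% to 39.1% in MYC tumours and 21.7% to 28.3% in MYC+Ex3 tumours. MYC tumour 3 gave both the 17.2% for Col18a1 and the 39.1% for the fibrillar genes. These shares are descriptions without a test.

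Of the beaded filament chains of collagen VI, found around most cells, Col6a1 and Col6a2 passed the RPKM filter and gave no call in the limma fits on the deposited scale. The rare Col6a6, described above, was called lower in both tumour groups by voom, with MYC tumour 2 inside the liver range. The authors' deposited table did not call it in MYC tumours (adjusted p = 0.115). In the authors' deposited table, Col6a1 was called lower in MYC+Ex3 tumours (log2 fold change -0.57, adjusted p = 0.00721), as were Col6a4 and Col6a6. Col6a1 averaged 5.04 ± 1.55, 6.88 ± 2.19, 5.11 ± 1.97 and 5.27 ± 2.13 RPKM in WT, Ex3, MYC and MYC+Ex3 livers, and 3.42 ± 0.594, 3.76 ± 1.93 and 2.71 ± 0.501 in 4-OHT livers, MYC tumours and MYC+Ex3 tumours. In the same order of groups, Col6a2 averaged 1.55 ± 0.482, 2.38 ± 0.88, 1.8 ± 0.859, 1.94 ± 0.676, 1.01 ± 0.153, 1.21 ± 0.816 and 0.868 ± 0.243. Col5a1, the obligate chain of type V collagen, averaged 2.63 ± 0.711, 4.27 ± 1.04, 3.52 ± 1.07, 3.56 ± 1.38, 1.57 ± 0.422, 1.49 ± 0.791 and 1.09 ± 0.235. Its Ex3 mean was the highest of the AAV arm, with ranges that overlapped WT (1.85 to 3.79 against 2.77 to 5.33). Col16a1, a fibril-associated chain, averaged 1.4 ± 0.319, 1.43 ± 0.286, 1.31 ± 0.306, 1.53 ± 0.511, 0.559 ± 0.0822, 0.395 ± 0.131 and 0.281 ± 0.0493.

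The rarer type IV chains, and the membrane collagens other than Col13a1, had low levels. Col4a4, the partner of Col4a3, averaged 0.321 ± 0.057 in WT, 0.448 ± 0.122 in Ex3, 0.23 ± 0.0759 in MYC and 0.257 ± 0.0681 RPKM in MYC+Ex3 livers. Col4a6, which neighbours Col4a5 on the X chromosome, averaged 0.123 ± 0.0573, 0.338 ± 0.469, 0.108 ± 0.0629 and 0.0671 ± 0.0548, and its Ex3 mean rested on 1 liver at 1.17. Col8a2, the partner of Col8a1, averaged 0.147 ± 0.0382 in 4-OHT livers, 0.0676 ± 0.0443 in MYC tumours and 0.0433 ± 0.0166 in MYC+Ex3 tumours, thus lower where Col8a1 was higher. Its voom differences were -1.32 (adjusted p = 0.0307) and -1.87 (adjusted p = 0.0052). Col17a1 and Col7a1, which hold epithelium to its basement membrane in skin, averaged 0.304 ± 0.194 and 0.0729 ± 0.0763 in WT livers, and no group mean of either exceeded 0.543. Col4a4 and Col4a6 averaged 0.111 ± 0.0368 and 0.0386 ± 0.00816 in 4-OHT livers, 0.0569 ± 0.0223 and 0.0169 ± 0.0181 in MYC tumours, and 0.167 ± 0.117 and 0.016 ± 0.0108 in MYC+Ex3 tumours. Col23a1, a membrane collagen, averaged 0.247 ± 0.185 in WT livers and 0.0735 ± 0.0246 in 4-OHT livers. Col25a1, another, averaged 0.202 ± 0.174 and 0.0288 ± 0.00904 there, and Col9a2 was at or under 0.406 in every AAV liver.

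Cartilage collagens appeared in 1 library. Col2a1, the main fibrillar collagen of cartilage, read 8.15 RPKM in MYC 5 and 0 in the 4 other MYC livers. The same library held Col11a1 at 1.61, Col25a1 at 2.22 and Col4a5 at 5.64. Its cartilage collagens summed to 11.3 RPKM, against at most 0.897 in the other AAV livers. The summed level of other cartilage markers was 15.6 there, inside the range of 8.92 to 21.4 of the other AAV livers. Of these 11 markers 6 had reads in MYC 5, against 3 to 10 in the other AAV livers. Matn1, Matn3 and Epyc were at 0 in MYC 5, but Matn1 and Epyc were at 0 in every MYC liver. Of 4 markers tested, 1 was higher in MYC against WT livers (Hapln1), beside 16.9% of all genes. MYC 5 is the library with reads of both Xist and Ddx3y.

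Genes that process collagen were examined as a list of 32 handling genes. In MYC against WT livers 3 of 28 tested were higher and 1 lower, smaller shares than the 16.9% and 5.36% of all genes: Colgalt1 (0.60), which adds sugar to collagen lysines, and Crtap (1.22) and P3h1 (0.76), which form the prolyl 3-hydroxylation complex, were higher, and Mia3 (-0.52), which helps load procollagen into transport vesicles, was lower. In MYC+Ex3 against WT livers Crtap (1.49), Colgalt1 (0.52) and P3h1 (0.60) were higher and Loxl4 (-1.09), a crosslinking enzyme, was lower, beside 17.9% and 6.18% of all genes. In MYC+Ex3 against Ex3 livers 2 were higher and 1 lower, led by Colgalt1, Crtap and Mia3, beside 16.4% and 4.7% of all genes. Crtap was also higher in MYC tumours (1.17) and MYC+Ex3 tumours (0.99), and Bmp1, which trims procollagen ends, was lower in both (-0.83 and -1.44). In all, 4 of 20 tested were higher and 3 lower in MYC tumours (36.2% and 13.7% of all genes), and 1 was higher and 5 lower in MYC+Ex3 tumours (42.3% and 18.4% of all genes). The list's medians in the tumours were 0.067 and -0.089, against 0.188 and 0.232 for all genes. After rescaling the list gave 1 higher (Crtap) in both, with 5 and 8 lower. On that scale 27.1% of all genes were higher and 23.3% lower in MYC tumours, and 33.9% and 27.1% in MYC+Ex3 tumours. MYC+Ex3 against MYC tumours gave 0 higher and 2 lower, Bmp1 and Serpinh1, the collagen chaperone. Ex3 against WT, MYC+Ex3 against MYC and the interaction gave 0 calls in this list.

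Collagen breakdown genes numbered 10, and their counts and those of the receptors are to be read against the same shares of all genes. Mmp13, a collagenase, was the single one called in MYC against WT livers (1.38, higher, of 9 tested), and 0 were called in MYC+Ex3 against WT. Mmp8, the neutrophil collagenase, was the single one called in MYC tumours (0.81, of 7 tested). After rescaling 0 were called there, beside 27.1% of all genes higher and 23.3% lower. In MYC+Ex3 tumours Mmp8 (1.84) and Mmp9 (0.96) were higher, and Mmp14 (-0.57), Mmp2 (-0.53) and the inhibitor Timp2 (-0.45) were lower. Of 8 collagen receptors, Itga1, a chain of a collagen-binding integrin, was the single one called in MYC (-0.47) and MYC+Ex3 livers (-0.47), of 6 tested. Ddr2 and Lair1, receptors for fibrillar collagen, were lower in MYC tumours (-0.36 and -0.52) and MYC+Ex3 tumours (-0.77 and -0.83), of 4 tested.

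Cell type markers in the tumours are to be read against the 36.2% of all genes higher and 13.7% lower in MYC tumours, and the 42.3% and 18.4% in MYC+Ex3 tumours. Of 15 stellate cell and fibroblast markers tested, 2 were higher and 8 lower in MYC tumours. Acta2 (1.55) and Tagln (0.76) were higher. Ecm1 (-1.80), Reln (-1.47) and Colec11 had the smallest p-values of the list in limma and were lower. Dcn (-0.99), the fibril-binding proteoglycan decorin, was also lower. In MYC+Ex3 tumours 1 was higher and 12 lower. Their sum was 74.9 to 101 RPKM in 4-OHT livers, 35.9 to 67.9 in MYC tumours and 36 to 41.7 in MYC+Ex3 tumours. Portal fibroblast markers went the other way: 3 of 4 tested were higher in MYC tumours (Cd34 1.29, Eln 1.01 and Fbln2) and 2 in MYC+Ex3 tumours, with sums of 3.51 to 5.05, 8.28 to 18.8 and 6.52 to 10.7. Endothelial markers were lower for 7 of 9 tested in each tumour group (sums of 54.5 to 91, 27.4 to 50.5 and 31.1 to 35.3), and macrophage markers for 6 and 5 of 7. After rescaling Acta2 and Tagln stayed higher in MYC tumours, with 9 stellate markers lower, and the portal fibroblast markers called were 3 in MYC and 1 in MYC+Ex3 tumours. On that scale 27.1% of all genes were higher and 23.3% lower in MYC tumours, and 33.9% and 27.1% in MYC+Ex3 tumours. The portal fibroblast sum of 18.8 was that of MYC tumour 3, against 8.28 and 10.3 in the other MYC tumours. No gene of these 4 lists was at 0 throughout a group. The part of these markers in the collagen differences was not tested.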

How the data were processed

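Total RNA from 33 mouse livers and nodules was sequenced as strand-specific libraries, per the labels' protocols. The submitters' processing notes name mm9, TopHat2 2.0.8, SAMtools, featureCounts 1.4.5-p1 and DESeq2, with no settings; the strand setting of counting is not given in the sources used here. The deposited table holds RPKM per gene and library, as made by the authors. It also holds the authors' log2 fold changes, printed only where named as the authors' deposited table, and the authors' adjusted p-values beside them. Columns from other series numbered 0. Each gene's RPKM moves in steps of 1 read in a library, which gave back the reads. 100% of values were whole within 0.01 of a read, for 20485 genes with reads; 1186 genes were at 0 throughout. Reads in genes numbered 3.75 to 7.31 M per AAV liver and 6.65 to 9.82 M per tumour-arm library. Groups came from titles, genotypes and treatments; numbers follow record order and pair no samples. The main test was limma 3.58.1 (R 4.3.3) on log2(RPKM + 1), with a pseudocount of 1 and an empirical Bayes trend, two-sided, for genes of at least 1 RPKM in at least 3 libraries of an arm. Each arm was fitted separately with all its groups, and p-values were adjusted by Benjamini-Hochberg over all genes tested, with a threshold of 0.05. A fold change on this scale understates the change of low genes. Tests were checked on simulated data. The members, lists and tests were chosen with earlier results of these data known, and the class names were written by hand. In each comparison all members called were named, with the 2 of largest difference, and up to 3 members of each list by smallest adjusted p. Some further list members, among them Acta2, Tagln and Dcn, were named outside this rule. Alternatives were a pseudocount of 0.1, no filter, median-ratio rescaling, fitting only the groups compared, voom on recovered reads, a keratin term, keratin-free or keratin-bearing livers alone, each set of 4-OHT livers alone (S14 and S15 in the titles) and leaving out each library. Added after the data were seen were voom for genes of at least 10 reads in 3 libraries, that fit without MYC tumour 3, a sex term, and the ratios of partner chains. Sex was read from Xist and Ddx3y. Promoter sequences are RefSeq's. Col6a3 was not analysed here.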

Additional observations from a re-analysis of the deposited data

Results flagged for a closer look

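Libraries far from the rest of their group were looked for in 97 groups of 4 to 10 libraries with a mean of at least 1 RPKM, where chance flags about 1 in 20. The gap to the nearest library was large against the group's range in 7 of them. MYC 5 was flagged 3 times, for Col2a1 at 8.149 RPKM against 0 in the other MYC livers, Col27a1 at 5.821 against 0.907 to 2.13, and Col1a2 at 8.404 against 3.16 to 4.12. The same library had both Xist (86.1 RPKM) and Ddx3y (4.74), and the highest summed skeletal muscle markers of the AAV arm (13.5 RPKM). Without it the Col1a1 difference in MYC against WT livers was 1.01 with adjusted p = 0.0559, Col13a1, Col14a1 and Col20a1 were called lower there, and Col27a1 in MYC+Ex3 against WT livers reached adjusted p = 0.0479. Col5a2 was flagged in 2 groups, at 9.557 RPKM in MYC+Ex3 4 against 1.06 to 3.22, and at 4.268 in Ex3 2 against 2.23 to 2.8. Col15a1 was at 3.828 in MYC+Ex3 2 against 1.65 to 2.21. Col4a3 was at 0.4746 in WT 4, below the 1.14 to 1.37 of the other WT livers. Groups of 3 tumours were too small for this rule. What sets these libraries apart was not tested.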

How the results depend on the processing

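No paired analysis was possible because replicate numbers follow the order of the records and the labels tie no samples across groups. Ex3 against WT, MYC+Ex3 against MYC and the interaction gave 0 called collagen genes under every alternative run. The 1 gene called in MYC against WT livers became 2 with a pseudocount of 0.1, with only the groups compared, with voom (either filter) and with a sex term, 3 with a keratin term, 5 after rescaling and 0 in keratin-free livers, and 0 to 3 when 1 library was left out. The 5 called in MYC+Ex3 against WT became 8 with a keratin term, 2 in keratin-free livers (Col13a1 and Col14a1) and 2 in keratin-bearing livers (Col1a1 and Col18a1), and 3 to 6 when 1 library was left out. The 2 in MYC+Ex3 against Ex3 became 4 with a keratin term and 0 in keratin-bearing livers, and 0 to 3 when 1 library was left out. The 7 in MYC tumours became 15 with no filter, 17 with voom on genes of at least 10 reads and 4 against the S14 livers, and 4 to 7 when 1 library was left out, with 4 only without MYC tumour 3. The 4 in MYC+Ex3 tumours became 15 with no filter, 16 with voom on genes of at least 10 reads and 17 without MYC tumour 3 in that fit, and 3 to 5 when 1 library was left out. The 1 in MYC+Ex3 against MYC tumours became 2 with a pseudocount of 0.1 and 0 with no filter, only the groups compared, a sex term, or voom without MYC tumour 3, and 0 to 3 when 1 library was left out. With no filter and with voom more genes were tested, and subsets hold fewer samples; the cause of the other changes was not tested. Reversed values were small: the Col1a1 to Col1a2 log2 ratio between tumour groups was 0.034 without MYC tumour 3, and the Col4a1 to Col4a2 log2 ratio was -0.0475 in keratin-bearing livers for MYC+Ex3 against WT and 0.019 in keratin-free livers for MYC+Ex3 against MYC. Over single genes and ratios, 747 values kept direction and side of the threshold, 85 fell below it, 6 rose above it and 3 reversed. These values include genes not called in the main fit, and fits that left out a library of a group outside the comparison. Counts of reads limit the rarer chains: 7 members had fewer than 100 reads in the series.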
